A study of Mus musculus with 4 samples.

Results

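The genes described here are the histone genes of the HIST clusters. They are every entry on a primary chromosome whose name begins with HIST1H, HIST2H, HIST3H or HIST4H. The 13 names that end in PS or in PS and a digit were dropped. The rule, which uses names and no measured value, gave 76 of the 64253 genes in the files. It does not set other pseudogenes or testis genes apart, so not all 76 are canonical histone genes. Of these, 70 carry the name of a core histone (17 H2A, 23 H2B, 15 H3 and 15 H4 genes) and 6 the name of the linker histone H1. On hg38, 55 lie in the HIST1 cluster on chromosome 6 between 25726132 and 27893843, 16 in HIST2 on chromosome 1 between 121108210 and 149887916, 4 in HIST3 on chromosome 1 between 228424845 and 228464626, and 1, HIST4H4, on chromosome 12 between 14767999 and 14771131.

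RNA came from CD8+ T cells of peripheral blood, sorted for high CD11a (an integrin chain that marks antigen-experienced T cells), in 4 libraries with 1 library per group. The groups were a responder after therapy with an antibody against the inhibitory receptor PD-1, a non-responder after that therapy, a responder before it and a non-responder before it. The antibody was given at intervals of 3 weeks with 4 doses to a cycle. The labels tie no 2 libraries to the same patient, do not say whether a library is 1 patient or a pool, and disagree on timing, since a treatment note places every sample after a cycle while the group label, followed here, places 2 of them before. A tag for PD-1-positive cells stands in both sample names from before therapy and in neither from after it, and whether the gate differed was not tested. The organism field names mouse, but the entries are human Ensembl genes on hg38.

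Nucleosomes wrap DNA around a core of H2A, H2B, H3 and H4, and H1 binds the linker DNA where it enters and leaves. Most genes of the HIST clusters serve DNA replication and are switched on in S phase. They have mostly no introns, and end their mRNA in a stem-loop, bound by SLBP, in place of a poly(A) tail. Some of them also give polyadenylated mRNA, mainly in cells that have stopped dividing. The cDNA kit named in the labels primes on poly(A) tails, so the levels given here describe the transcripts that such priming caught, and what share of all histone mRNA that was is not known. In sorted bulk RNA, fewer cells of a type and less RNA per cell cannot be told apart.

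The libraries held between 65500644 and 129773591 counts. All 10 CD8 T cell and sort markers had counts in every library, with summed levels of 6559 CPM for the responder and 4216 CPM for the non-responder after therapy, and of 6228 CPM for the responder and 4837 CPM for the non-responder before it. CPM are counts scaled to library size with TMM factors between libraries. With 1 library per group no ratio of 2 libraries has a replicate check or a p-value, and the 95% intervals given with ratios speak of counting error alone. Without molecular identifiers, intervals, and floors of 3 counts for a library at 0, cover no more than that.

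Histone cluster genes were a small part of each library and were scarcest in the responder library after therapy. Core histone genes took 0.0122% of all counts in the responder library after therapy (Wilson 95% interval 0.0120 to 0.0124), 0.0286% in the non-responder library after therapy (0.0283 to 0.0289), 0.0290% in the responder library before therapy (0.0287 to 0.0294) and 0.0454% in the non-responder library before therapy (0.0448 to 0.0459). Linker histone genes took 0.00794% (0.00779 to 0.00810), 0.0297% (0.0293 to 0.0300), 0.0250% (0.0246 to 0.0253) and 0.0448% (0.0443 to 0.0453) in the same libraries. The 6 linker genes thus gave 10309 reads against 15792 from the 70 core genes in the responder library after therapy, and 34230 against 32984 in the non-responder library after therapy.

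**Figure D1:**
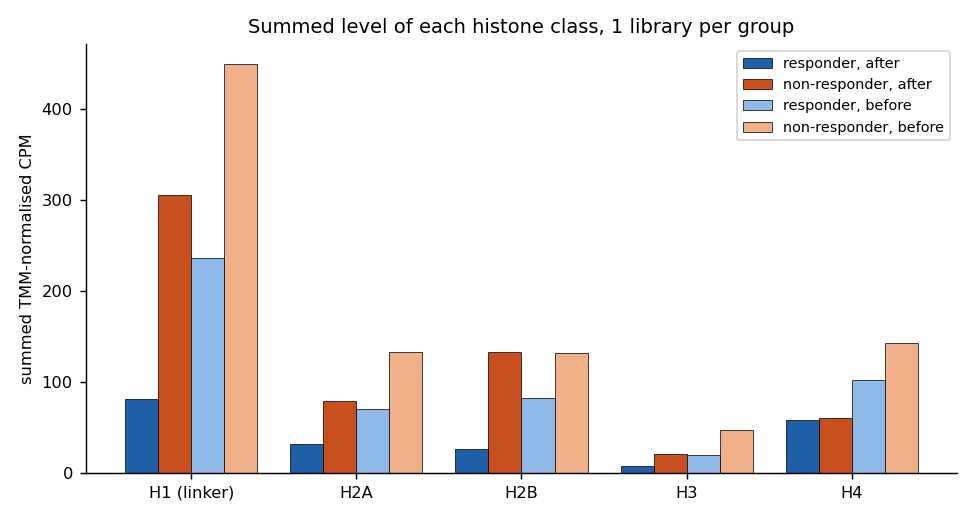
Summed TMM-normalised CPM (vertical axis, from 0) of the linker class H1 and the core classes H2A, H2B, H3 and H4 in the 4 libraries, 1 library per bar and no error bars. The responder library after therapy has the shortest bar of every class, from 7.33 CPM for H3 to 80.9 CPM for H1.

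Of the 76 genes, 5 had no count in any library, among them the testis genes HIST1H1T, HIST1H2AA and HIST1H2BA, and 64 had at least 1 read in each. An average of at least 1 CPM over the 4 libraries was reached by 38 genes, 34 core and 4 linker, and these enter the ratios below. Among them HIST2H2AB and HIST1H2AB passed through the non-responder library before therapy alone, the only one where they reached 1 CPM, so that they had to be lower in the others. HIST1H4B, HIST1H4F, HIST1H4H and HIST1H2BI also passed only with that library, at 2.61, 1.99, 1.79 and 2.65 CPM there. Their other libraries average under 1 CPM, so a lower average in those follows from the filter. The 38 genes below the 1 CPM average included 33 with some count, none over 3.14 CPM in any library. Of the 34 core genes compared, 30 were lowest in the responder library after therapy and 27 were highest in the non-responder library before therapy. All 4 linker genes had that same order at both ends. The shares of all genes that were lowest or highest in these libraries are not given here. These counts therefore cannot be set against all genes.

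A linker gene gave the most reads of the family in each library but that of the responder after therapy, where HIST1H4C did. HIST1H1E (ENSG00000168298, chromosome 6: 26156391 to 26157050) stood at 38.2 CPM for the responder and 109.9 CPM for the non-responder after therapy, and at 117 CPM for the responder and 224 CPM for the non-responder before therapy. HIST1H1C (ENSG00000187837, chromosome 6: 26055787 to 26056428) stood at 18.7 CPM for the responder and 127 CPM for the non-responder after therapy, and at 56.9 CPM for the responder and 142 CPM for the non-responder before therapy. Both are somatic H1 subtypes, and both were lowest in the responder library after therapy, HIST1H1C by the wider margin. HIST1H1D, another somatic subtype, stood at 21.9 CPM for the responder and 65.7 CPM for the non-responder after therapy, against 59.6 CPM for the responder and 76.9 CPM for the non-responder before therapy. HIST1H1B was far scarcer, with 1.76 CPM for the responder and 2.75 CPM for the non-responder after therapy, and 2.91 CPM for the responder and 6.10 CPM for the non-responder before therapy. The make-up of the class also differed: HIST1H1C gave 23.1% of H1 reads in the responder and 41.7% in the non-responder library after therapy, against 24.0% in the responder and 31.6% in the non-responder library before therapy.

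Among the H4 genes, nearly all of which encode the same protein, HIST1H4C (ENSG00000197061, chromosome 6: 26103876 to 26104310) was the most abundant. It stood at 44.3 CPM for the responder and 34.3 CPM for the non-responder after therapy, and at 76.9 CPM for the responder and 86.0 CPM for the non-responder before therapy. It was one of 2 core genes, with HIST1H4I, that were higher in the responder than in the non-responder library after therapy, and it made up 35.7% of core histone CPM there, against 11.6% in the non-responder library of that time. HIST1H4E had 3.52 CPM for the responder and 8.23 CPM for the non-responder after therapy, and 8.08 CPM for the responder and 25.96 CPM for the non-responder before therapy. HIST4H4, the lone copy on chromosome 12, had 3.84 CPM for the responder and 8.54 CPM for the non-responder after therapy, and 5.22 CPM for the responder and 13.1 CPM for the non-responder before therapy. Both of these were lower in the responder library of each time. HIST1H4I was nearly level after therapy, at 3.26 CPM for the responder and 3.02 CPM for the non-responder. Before therapy it was higher for the responder, at 4.37 CPM against 3.25 CPM for the non-responder. HIST1H4B, at 0.808 CPM for the responder and 1.26 CPM for the non-responder after therapy, stood at 0.396 CPM for the responder and 2.61 CPM for the non-responder before therapy.

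Per kilobase of the length in the files, HIST1H4C had the highest level in the responder library after therapy, 102 CPM per kb. HIST1H1C led in the non-responder library after therapy with 198 CPM per kb, and HIST1H1E in the non-responder library before therapy with 339 CPM per kb. In the responder library before therapy HIST1H4C and HIST1H1E both came to 177 CPM per kb. The files name this length coding length, but at up to 5477 bases, for HIST1H2BN, it must include more than coding sequence for some genes. It is at most 700 bases for 55 of the 76, and levels per kb depend on it.

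**Figure D2:**
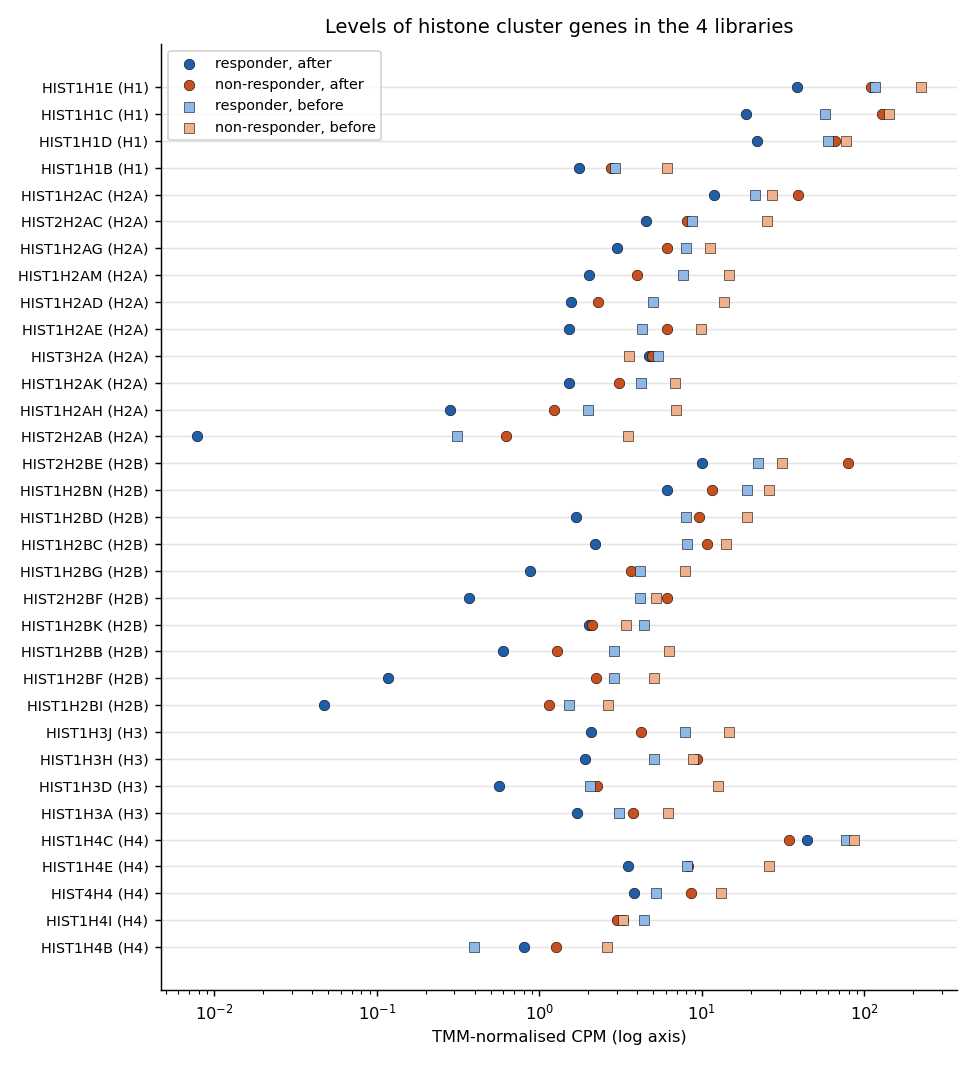
TMM-normalised CPM (horizontal log axis) of the 33 histone genes named by the selection rule, grouped by class, with 1 point per library. Circles are libraries from after therapy and squares from before it, and the dark blue circle of the responder library after therapy is leftmost for all but HIST1H4C, HIST1H4I, HIST1H4B and HIST3H2A.

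Among the core sums, that of the H2B genes was furthest apart after therapy. HIST2H2BE (ENSG00000184678, chromosome 1: 149842204 to 149886652), which is known to give a polyadenylated transcript, stood at 10.0 CPM for the responder and 79.0 CPM for the non-responder after therapy, and at 22.003 CPM for the responder and 31.1 CPM for the non-responder before therapy. The non-responder library after therapy thus stood apart from the other 3, and HIST2H2BE alone made up 26.8% of its core histone CPM. Its interval spans 6 other cluster genes, among them both entries named HIST2H2AA4, and the strand setting of the counting is not given, so shared reads cannot be set apart. HIST1H2BN had 6.05 CPM for the responder and 11.5 CPM for the non-responder after therapy, and 18.8 CPM for the responder and 25.9 CPM for the non-responder before therapy. HIST1H2BD, also known for a polyadenylated form, had 1.69 CPM for the responder and 9.64 CPM for the non-responder after therapy, and 8.01 CPM for the responder and 18.8 CPM for the non-responder before therapy. For HIST1H2BC the levels were 2.19 CPM for the responder and 10.7 CPM for the non-responder after therapy, and 8.10 CPM for the responder and 14.0 CPM for the non-responder before therapy. All 3 were lowest in the responder library after therapy and highest in the non-responder library before it.

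Several scarcer H2B genes came close to 0 in the responder library after therapy. HIST1H2BI had 6 reads there, 0.0471 CPM, against 1.14 CPM in the non-responder library after therapy, and 1.51 CPM for the responder and 2.65 CPM for the non-responder before therapy. HIST1H2BF had 15 reads, 0.118 CPM, for the responder and 2.23 CPM for the non-responder after therapy, and 2.86 CPM for the responder and 5.06 CPM for the non-responder before therapy. HIST2H2BF had 0.369 CPM for the responder and 6.06 CPM for the non-responder after therapy, and 4.18 CPM for the responder and 5.18 CPM for the non-responder before therapy. In all 3 the responder library after therapy stood apart from the rest by more than 10-fold. HIST2H2BF overlaps FCGR1A, an Fc receptor gene of monocytes, over 9830 bases, and FCGR1A had 273 reads in the responder and 810 in the non-responder library after therapy, against 6 in the responder and 0 in the non-responder library before therapy. HIST1H2BG had 0.879 CPM for the responder and 3.65 CPM for the non-responder after therapy, and 4.18 CPM for the responder and 7.90 CPM for the non-responder before therapy. HIST1H2BB had 0.596 CPM for the responder and 1.28 CPM for the non-responder after therapy, and 2.89 CPM for the responder and 6.30 CPM for the non-responder before therapy. Both kept the usual order, the responder library after therapy lowest and the non-responder library before it highest. HIST1H2BK differed, at 2.01 CPM for the responder and 2.09 CPM for the non-responder after therapy, and 4.37 CPM for the responder and 3.42 CPM for the non-responder before therapy.

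H2A genes followed the same order with fewer extremes. HIST1H2AC (ENSG00000180573, chromosome 6: 26124145 to 26139116) stood at 11.9 CPM for the responder and 39.1 CPM for the non-responder after therapy, and at 21.1 CPM for the responder and 27.1 CPM for the non-responder before therapy. HIST2H2AC had 4.51 CPM for the responder and 8.11 CPM for the non-responder after therapy, and 8.73 CPM for the responder and 25.1 CPM for the non-responder before therapy. Like HIST2H2BE, HIST1H2AC was highest in the non-responder library after therapy, while HIST2H2AC was highest in the non-responder library before it. HIST2H2AB had the lowest ratios of responder over non-responder among the genes compared, with 1 read in the responder and 70 reads in the non-responder library after therapy, and 26 reads in the responder and 230 reads in the non-responder library before therapy. The next 6 H2A genes, all of the HIST1 cluster, were each lowest in the responder library after therapy and highest in the non-responder library before it. HIST1H2AG had 3.01 CPM for the responder and 6.11 CPM for the non-responder after therapy, and 7.95 CPM for the responder and 11.2 CPM for the non-responder before therapy. HIST1H2AM gave 2.02 CPM for the responder and 3.98 CPM for the non-responder after therapy, and 7.67 CPM for the responder and 14.6 CPM for the non-responder before therapy. HIST1H2AD had 1.57 CPM for the responder and 2.30 CPM for the non-responder after therapy, and 4.98 CPM for the responder and 13.6 CPM for the non-responder before therapy. In all 3 the libraries from before therapy stood above both from after it. HIST1H2AE had 1.52 CPM for the responder and 6.07 CPM for the non-responder after therapy, and 4.30 CPM for the responder and 9.83 CPM for the non-responder before therapy. HIST1H2AK gave 1.51 CPM for the responder and 3.08 CPM for the non-responder after therapy, and 4.24 CPM for the responder and 6.87 CPM for the non-responder before therapy. HIST1H2AH had 0.283 CPM for the responder and 1.23 CPM for the non-responder after therapy, and 1.98 CPM for the responder and 6.95 CPM for the non-responder before therapy. HIST3H2A, from the HIST3 cluster, was nearly level after therapy, at 4.69 CPM for the responder and 4.95 CPM for the non-responder. Before therapy it was higher for the responder, at 5.37 CPM against 3.54 CPM for the non-responder.

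H3 genes gave the fewest reads of any class, and 4 of 15 were compared. HIST1H3D had 0.565 CPM for the responder and 2.26 CPM for the non-responder after therapy, and 2.04 CPM for the responder and 12.6 CPM for the non-responder before therapy. HIST1H3H had 1.90 CPM for the responder and 9.32 CPM for the non-responder after therapy, and 5.08 CPM for the responder and 8.83 CPM for the non-responder before therapy. Both were lowest in the responder library after therapy, and HIST1H3D was highest in the non-responder library before it. HIST1H3A had 1.70 CPM for the responder and 3.75 CPM for the non-responder after therapy, and 3.09 CPM for the responder and 6.18 CPM for the non-responder before therapy. HIST1H3J had 266 reads in the responder and 470 in the non-responder library after therapy, and 659 in the responder and 957 in the non-responder library before therapy, while HIST1H2AM, which overlaps it over 350 bases, had 257, 445, 639 and 953 reads in the same libraries. With overlap and counts that close, the 2 cannot be read as separate measurements.

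The comparison of responder with non-responder after therapy asks which transcripts went with response once the antibody had been given. Here core histone genes were mostly lower in the responder library. At least 2-fold lower were 23 of 34 compared, against 11.6% of all 16444 genes. At least 2-fold higher were 0, against 7.38% of all genes. The median log2 ratio was -1.19 over the core genes, against 0.04 over all genes, and 32 of 34 lay below 0, against 47.3% of all genes. Their summed level was 124 CPM for the responder and 295 CPM for the non-responder (log2 ratio -1.25, interval -1.28 to -1.22), and without members that overlap another gene, HIST2H2BE among them, the log2 ratio of the sums was -0.80. By class, the sum over H2B genes was 26.4 against 133 CPM, 5.04-fold lower, that over H3 genes 2.91-fold lower and that over H2A genes 2.48-fold lower, while H4 genes came to 58.2 against 60.9 CPM. Linker genes were 3.78-fold lower by their sum, 80.9 against 306 CPM (log2 ratio -1.92, interval -1.95 to -1.89), and 3 of 4 were at least 2-fold lower.

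Single ratios in that pair reached far. HIST1H1C was 6.82-fold lower in the responder library (log2 ratio -2.77, interval -2.83 to -2.71), and HIST2H2BE 7.90-fold lower (-2.98, interval -3.07 to -2.90). HIST1H2BI was 22.4-fold lower (-4.48, interval -6.07 to -3.44) and HIST1H2BF 18.4-fold lower (-4.20, interval -5.10 to -3.50). For HIST2H2AB, which rests on 1 read in the responder library, the log2 ratio was -5.71 with an interval from -11.6 to -3.79. On the other side HIST1H4C was 1.29-fold higher (0.37, interval 0.31 to 0.43), and HIST1H4I had a log2 ratio of 0.11, whose interval from -0.10 to 0.32 includes 0.

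Markers of other blood cells moved with this pair. The 17 monocyte and neutrophil markers all had counts in both libraries, and summed to 2096 CPM for the responder and 10157 CPM for the non-responder after therapy. The 9 platelet markers, likewise all detected, summed to 26.2 CPM for the responder and 219 CPM for the non-responder. Dendritic cell markers summed to 6.71 CPM for the responder, with CLEC9A and CLEC4C at 0, and to 65.5 CPM in the non-responder library, with XCR1 at 0. Mitochondrial genes took 3.37% of counts for the responder and 4.75% for the non-responder. The part of any of these in the histone ratios after therapy was not tested.

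Before therapy, when the same comparison asks what separated the patients at the outset, histone genes were again lower in the responder library, by less. At least 2-fold lower were 14 of 34 core genes, against 11.2% of all genes, and at least 2-fold higher were 0, against 15%. The median log2 ratio was -0.90 over core genes, against 0.06 over all genes, and 31 of 34 lay below 0, against 46.6% of all genes. The sum over core genes was 275 CPM for the responder and 456 CPM for the non-responder (log2 ratio -0.73, interval -0.75 to -0.70). Linker genes summed to 237 CPM for the responder and 450 CPM for the non-responder (log2 ratio -0.93, interval -0.95 to -0.90), and 2 of 4 were at least 2-fold lower. Monocyte and neutrophil markers summed to 244 CPM for the responder and 290 CPM for the non-responder of this pair. In the responder library 6 of these 17 were at least 2-fold lower and 1 higher (median log2 ratio -0.43). Platelet markers summed to 93.4 CPM for the responder and 95.4 CPM for the non-responder, where TREML1 and CLEC1B were at 0. Of the 9 platelet markers, 3 were at least 2-fold lower and 4 higher for the responder (median -0.60). Of all genes, 11.2% were lower and 15% higher by that much. Epithelial markers differed more, at 227 CPM for the responder and 15.4 CPM for the non-responder, where EPCAM, CDH1, CLDN4 and LAMB3 were at 0. Red cell markers, 5 of 8 detected in each library, summed to 2.86 CPM for the responder and 22.1 CPM for the non-responder. The part of these cells in the ratios was not tested.

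**Figure D3:**
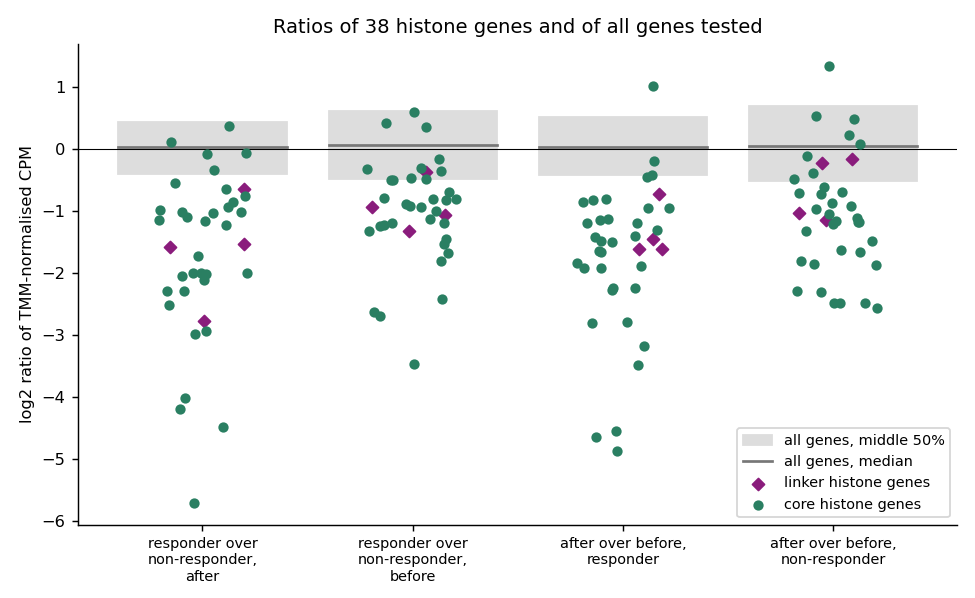
Log2 ratios of TMM-normalised CPM (vertical axis) of the 38 histone genes compared, linker as diamonds and core as circles, in the 4 comparisons. Grey boxes span the middle 50% of all 16444 genes with their median as a line, and most histone genes lie below the box in each comparison, with core medians of -1.19, -0.90, -1.49 and -1.13 from left to right.

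HIST2H2AB had the lowest ratio before therapy, as it had after it. It was 11.1-fold lower in the responder library before therapy (log2 ratio -3.47, interval -4.14 to -2.91), HIST1H4B 6.48-fold lower (-2.70, interval -3.30 to -2.17) and HIST1H3D 6.16-fold lower (-2.62, interval -2.87 to -2.39). HIST2H2AB and HIST1H4B passed the filter only with the non-responder library of this pair, so their ratios here cannot be read apart from the filter. HIST1H1C was 2.50-fold lower (-1.32, interval -1.37 to -1.27), whereas HIST2H2BE was 1.41-fold lower (-0.50, interval -0.59 to -0.41). HIST3H2A (log2 ratio 0.60, interval 0.37 to 0.84), HIST1H4I (0.43, interval 0.18 to 0.68) and HIST1H2BK (0.35, interval 0.11 to 0.60) were higher in the responder library, each by less than 2-fold.

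The pairs of libraries after and before therapy share no library, so their ratios can be set side by side. Of the 34 core genes, 30 were below 0 in both, and so were all 4 linker genes, against 28.9% of all genes. At least 2-fold lower in both were 10 core genes and HIST1H1C, against 3.74% of all genes, and at least 2-fold higher in both were 0, against 2.73%. The 10 were HIST1H2AB, HIST1H2AE, HIST1H2AH, HIST1H2BB, HIST1H2BD, HIST1H3D, HIST1H4E, HIST1H4H, HIST2H2AB and HIST4H4. Of these, HIST1H2AB had 0.0785 CPM for the responder and 0.625 CPM for the non-responder after therapy, and 0.577 CPM for the responder and 3.11 CPM for the non-responder before therapy. HIST1H4H had 0.314 CPM for the responder and 1.28 CPM for the non-responder after therapy, and 0.781 CPM for the responder and 1.79 CPM for the non-responder before therapy. Without HIST2H2AB and HIST1H2AB, whose place among the compared genes rests on the library where they were high, 8 of 32 core genes remain at least 2-fold lower in both. HIST1H4H is among these 8, and its place also rests on the non-responder library before therapy.

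**Figure D4:**
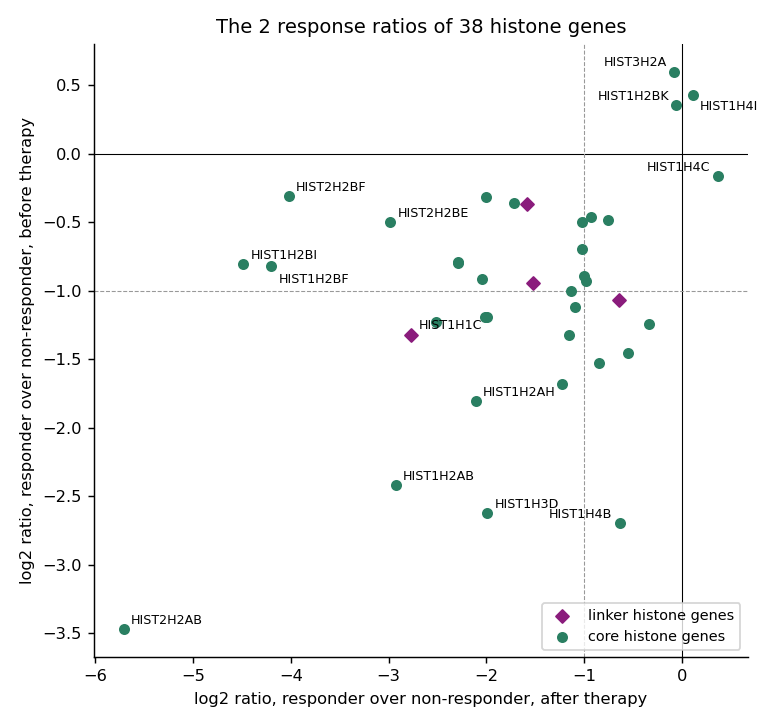
Log2 ratio of responder over non-responder after therapy (horizontal axis) and before therapy (vertical axis), 1 point per histone gene compared, with dashed lines at 2-fold lower. Of 38 genes, 34 have both ratios below 0, and HIST2H2AB lies furthest out at -5.71 and -3.47.

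Libraries from after therapy were then set against those from before it. In responders, 25 of 34 core genes were at least 2-fold lower after therapy, against 8.5% of all genes. Just 1, HIST1H4B, was at least 2-fold higher, against 10.1% of all genes. The core median log2 ratio was -1.49, against 0.03 over all genes, and the core sum was 124 CPM after and 275 CPM before therapy (log2 ratio -1.15, interval -1.18 to -1.12). All 11 H2B genes compared were at least 2-fold lower, led by HIST1H2BI (-4.87, interval -6.48 to -3.84) and HIST1H2BF (-4.55, interval -5.46 to -3.85). Linker genes summed to 80.9 CPM after and 237 CPM before therapy, with 3 of 4 at least 2-fold lower. Epithelial markers summed to 4.94 CPM after therapy, with EPCAM, KRT19 and LAMB3 at 0, and 227 CPM before it. Monocyte and neutrophil markers summed to 2096 CPM after and 244 CPM before. Platelet markers summed to 26.2 CPM after and 93.4 CPM before, with 5 of 9 at least 2-fold lower and 2 higher. The part of any of these was not tested.

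In non-responders, 19 of 34 core genes were at least 2-fold lower after therapy, against 11.3% of all genes. Again 1, here HIST2H2BE, was at least 2-fold higher, against 17.5% of all genes. The core median log2 ratio was -1.13, against 0.06 over all genes, and the core sum was 295 CPM after and 456 CPM before therapy (log2 ratio -0.63, interval -0.65 to -0.61). Lowest relative to before were HIST1H2AD (-2.57, interval -2.78 to -2.37), HIST1H2AH (-2.49, interval -2.78 to -2.22) and HIST2H2AB (-2.48, interval -2.90 to -2.10). HIST2H2BE was 2.54-fold higher (1.35, interval 1.28 to 1.42), HIST1H2AC 1.44-fold higher (0.53, interval 0.45 to 0.61) and HIST3H2A had a log2 ratio of 0.48 (interval 0.26 to 0.71). By sum, H4 genes came to 60.9 CPM after and 143 CPM before therapy, and H2B genes to 133 CPM after and 132 CPM before, HIST2H2BE alone giving 79.0 CPM of the H2B sum after and 31.1 CPM before. By median log2 ratio the classes were closer, at -1.19 for H4, with 5 of 8 at least 2-fold lower, and -0.96 for H2B, with 5 of 11. Linker genes summed to 306 CPM after and 450 CPM before therapy, with HIST1H1E 2.03-fold lower and HIST1H1C 1.12-fold lower. Monocyte and neutrophil markers summed to 10157 CPM after and 290 CPM before therapy in these libraries, platelet markers to 219 CPM after and 95.4 CPM before, and red cell markers to 5.42 CPM after and 22.1 CPM before, with 3 of 8 detected after and 5 of 8 before, and their part was not tested.

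At least 2-fold lower after therapy in both responders and non-responders were 15 of 34 core genes and HIST1H1E, against 3.5% of all genes, and 13 of 32 without HIST2H2AB and HIST1H2AB. HIST1H4F and HIST1H2BI, which passed the filter only with the non-responder library before therapy, are among these 13. The 15 count both HIST1H3J and HIST1H2AM, which cannot be read as separate measurements, and both HIST1H2AK and HIST1H2BN, which overlap over 393 bases. At least 2-fold higher in both were 0, against 5.19%. Below 0 in both were 28 core genes and all 4 linker genes, against 31.0% of all genes. Since the labels tie no library from before therapy to one from after it, time and patient cannot be told apart. The tag for PD-1-positive cells stands only in the sample names from before therapy. Any difference in the cells sorted thus cannot be told apart from time either.

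Core genes were also divided by the length in the files, which for the longer ones exceeds a histone coding sequence. The 22 core genes of at most 700 bases had a median log2 ratio of -1.41 after over before therapy in non-responders, and 17 were at least 2-fold lower, against 11.3% of all genes. The 12 longer core genes, among them HIST2H2BE and HIST1H2AC, had a median of -0.24, with 2 at least 2-fold lower, a share near that of all genes. In responders the medians were -1.58 for the short and -1.41 for the long genes. For responder over non-responder the short genes had medians of -1.18 after and -1.16 before therapy, and the long genes -1.44 after and -0.50 before.

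Medians by position in the clusters were as follows. The left block of HIST1, up to 26285509, held 21 compared genes with median log2 ratios of responder over non-responder of -1.99 after and -0.9998 before therapy. The 11 compared in the right block, from 27125897, had medians of -0.98 after and -0.80 before. The 4 compared in HIST2 had medians of -3.50 after and -1.01 before, and their sum was 6.06-fold lower after therapy, most of it HIST2H2BE. Of H2A and H2B genes that are direct neighbours, 4 pairs with gaps of 218 to 330 bases were compared. HIST1H2BG and HIST1H2AE had log2 ratios of -2.05 and -1.99 after therapy, whereas HIST1H2BK and HIST1H2AH had -0.06 and -2.11 in the same pair.

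Genes that make and process histone mRNA had medians above 0. The 27 factors of histone mRNA transcription, 3′ end formation and decay had a median log2 ratio of responder over non-responder of 0.27 after therapy. None of them was then 2-fold apart. Before therapy their median was 0.26, with 4 at least 2-fold higher, a share near the 15% of all genes, and 1 lower, against 11.2%. SLBP, the stem-loop binding protein, stood at 111 CPM for the responder and 83.1 CPM for the non-responder after therapy, and at 80.6 CPM for the responder and 116 CPM for the non-responder before therapy. NPAT, the coactivator of histone cluster transcription, stood at 106 CPM for the responder and 87.4 CPM for the non-responder after therapy, and at 82.5 CPM for the responder and 52.7 CPM for the non-responder before therapy. Both were thus higher in the responder library after therapy, and before it SLBP was lower and NPAT higher there. The 26 histone chaperones had medians of 0.22 after and 0.04 before therapy, and the 12 cleavage and polyadenylation factors of other mRNAs -0.02 after and -0.15 before.

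S phase genes, whose timing histone mRNA normally follows, were mostly higher in the responder library after therapy. After therapy 13 of 42 passed 2-fold upwards, against 7.38% of all genes, and 0 downwards (median log2 ratio 0.72). Before it 7 passed upwards and 4 downwards (median 0.17), shares near the 15% and 11.2% of all genes. PCNA, the replication clamp, stood at 58.1 CPM for the responder and 31.5 CPM for the non-responder after therapy, and at 59.9 CPM for the responder and 55.9 CPM for the non-responder before therapy. MCM2, a subunit of the replicative helicase, stood at 34.5 CPM for the responder and 17.0 CPM for the non-responder after therapy, and at 17.3 CPM for the responder and 51.2 CPM for the non-responder before therapy. MCM2 therefore took opposite sides at the 2 times, as did MKI67, a marker of dividing cells, with 8.91 CPM for the responder and 0.402 CPM for the non-responder after therapy, and 18.1 CPM for the responder and 36.5 CPM for the non-responder before therapy. The 18 mitosis genes compared had medians of 0.85 after and 0.68 before therapy. Over time these lists were lower after therapy in part, as histone genes were. Mitosis genes had a median log2 ratio of after over before therapy of -1.03 in responders, with 10 of 18 at least 2-fold lower and 0 higher, and of -1.73 in non-responders, with 12 lower and 1 higher. S phase genes had a median of -0.08 in responders, with 7 of 42 lower and 2 higher, and of -0.82 in non-responders, with 17 lower and 3 higher, where 8.5% of all genes in responders and 11.3% in non-responders were at least 2-fold lower.

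Genes of histone variants and linker histones outside the clusters, many of them with polyadenylated mRNA, were in part lower in the responder than in the non-responder library after therapy. After therapy 6 of 12 passed 2-fold downwards for the responder, against 11.6% of all genes, and 0 upwards (median log2 ratio -0.81). Before it 2 passed downwards, a share near the 11.2% of all genes, and 0 upwards (median -0.34). Over time they were not lower as a list. Their median log2 ratio of after over before therapy was -0.12 in responders, with 0 of 12 at least 2-fold apart. In non-responders it was 0.20, with 2 at least 2-fold higher and 1 lower, against 17.5% and 11.3% of all genes. H3F3B, which encodes replacement histone H3.3, stood at 2701 CPM for the responder and 9338 CPM for the non-responder after therapy, and at 2341 CPM for the responder and 6818 CPM for the non-responder before therapy. H3F3A, which encodes the same protein, stood at 323 CPM for the responder and 347 CPM for the non-responder after therapy, and at 296 CPM for the responder and 317 CPM for the non-responder before therapy. H2AFZ, the H2A.Z gene, ranged from 170.4 CPM in the non-responder library after therapy to 253 CPM in the non-responder library before it. The linker variant H1FX stood at 94.5 CPM for the responder and 494 CPM for the non-responder after therapy, and at 99.5 CPM for the responder and 189 CPM for the non-responder before therapy. H1F0, the linker variant of non-dividing cells, stood at 1.23 CPM for the responder and 37.7 CPM for the non-responder after therapy, and at 0.649 CPM for the responder and 0.644 CPM for the non-responder before therapy. The 2 linker variants and the cluster gene HIST1H1C were thus lower in the responder library after therapy alike, whereas H3F3A was nearly level.

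**Figure D5:**
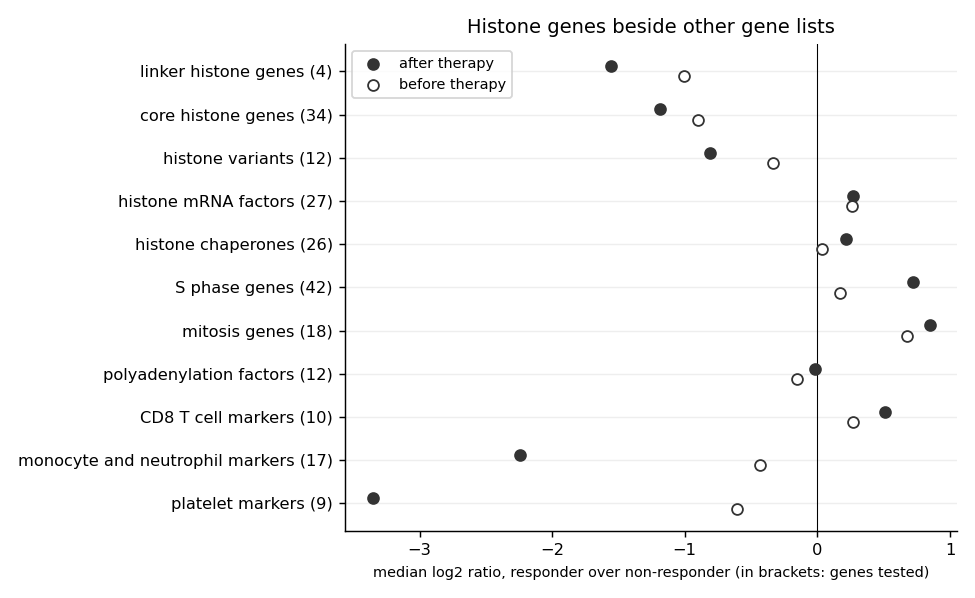
Median log2 ratio of responder over non-responder (horizontal axis) after therapy, filled, and before therapy, open, for linker and core histone genes and for other lists, with the number of genes compared in brackets. Linker and core histone medians lie between -1.55 and -0.90, S phase and mitosis medians between 0.17 and 0.85, and the monocyte and platelet medians after therapy at -2.24 and -3.35.

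A fit over all 4 libraries, response and time as additive terms, gave no call. By edgeR's quasi-likelihood test with Benjamini-Hochberg adjustment, 0 of 24113 genes passed an adjusted p of 0.05 for response (0%) and 0 for time (0%), and hence none of the 65 histone genes tested. At an unadjusted p under 0.05, 11 of the 65 were lower and 0 higher in responder libraries, against 3.87% of all genes lower, and 16 of 65 were lower and 0 higher after therapy, against 4.43% of all genes lower. HIST1H1C had a fitted log2 ratio of -2.04 ± 0.435 for response (± SE, edgeR adjusted p = 0.558), HIST1H1E -1.23 ± 0.234 with the same adjusted p, and HIST1H1E -1.32 ± 0.234 for time (edgeR adjusted p = 0.409). DESeq2 on the same design called 7 of 58 histone genes with an adjusted p lower in responders, against 2.38% of all genes, and 12 of 59 lower after therapy, against 2.11%. For response these were HIST1H1C, HIST1H1E, HIST1H2BD, HIST1H3D, HIST1H4E, HIST2H2AB and HIST2H2BE. HIST2H2AB and HIST1H2AB, which reached 1 CPM in the non-responder library before therapy alone, were among the 11 and the 16 under edgeR. HIST1H2BM also reached 1 CPM in that library alone, and was among the 16 and among the 12 of DESeq2 for time. HIST2H2AB was among the 7 of DESeq2 for response. The overlapping genes HIST1H3J and HIST1H2AM are both counted among the 16 and the 12 for time. The fit leaves 1 residual degree of freedom, and DESeq2 calls were not shared by edgeR or limma-voom. An exact two-sided permutation test of the core sums, 2 libraries against 2, gave p = 0.333 for response, the smallest it can give, and p = 0.667 for time, and the linker sums gave the same values.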

How the data were processed

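The authors deposited 1 file of raw counts by Ensembl gene for each library, per the file headers. The SMARTer Ultra Low kit made cDNA from 1 ng of RNA, read in pairs of 101 bases, per the labels' protocols. Conversion of base calls used bcl2fastq 1.8.4 and alignment TopHat2 on hg38, per the submitters' processing notes. For the counter, its strand setting and its handling of reads from near-identical copies, the sources used here give nothing. The length column, a different unit (bases), was used as deposited. Histone genes include near-identical copies in HIST2 whose reads the authors' counting could split, and 20 of the 76 members overlap another gene. The sequence tables at hand were of mouse, so no sequence is printed.

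Genes on other contigs (4146) and 617 sex-informative genes were dropped and 59490 kept, with totals taken over all counts. Ratios are on the log2 scale, from TMM-normalised CPM and a prior count of 0.5 (Python 3.11.15), over genes averaging at least 1 CPM in the 4 libraries, with exact conditional binomial 95% intervals. The additive fit used edgeR 4.0.16 in R 4.3.3 with filterByExpr, two-sided, with DESeq2 1.42.0 and limma-voom (limma 3.58.1) as alternatives, and its common biological coefficient of variation was 0.66. The SE beside a fitted ratio is its size over the root of its F statistic. Since nothing says that libraries are from separate donors, p-values measure only the spread between libraries. The response fit was tested on simulated data over 25032 genes at a coefficient of 0.6. It recovered 4% of genes changed 4-fold, 62% of those changed 16-fold and 98% of those changed 64-fold, with 5 false calls.

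Members are named with at least 5 CPM and 50 reads in a library (28 genes), or among the 3 largest ratios per direction in a comparison, with at least 50 reads in the higher library (5 more). Other lists have up to 4 genes each that were at least 2-fold apart the same way at both times, besides SLBP, NPAT, H3F3A, H3F3B, H2AFZ, MKI67, PCNA and MCM2, and only those a result turns on are given. H1F0, H1FX, FCGR1A, HIST1H2AB, HIST1H4F, HIST1H4H, HIST1H1A, HIST1H3E, HIST1H2BM and the genes at 0 were named after their values were seen. The members and lists were chosen with earlier results of these data known. Which members of 1 marker list were at 0 is not reported here.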

Additional observations from a re-analysis of the deposited data

Results flagged for a closer look

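In 3 of the named genes the libraries from after and before therapy differed in opposite directions in responders and in non-responders, with both counting intervals clear of 0 and at least 1 of the ratios 2-fold or more. With 1 library per group this difference was not tested. HIST2H2BE had a log2 ratio of after over before therapy of -1.14 in responders and 1.35 in non-responders. HIST2H2BF had -3.49 in responders and 0.22 in non-responders, and it shares 9830 bases with FCGR1A. HIST1H4B went the other way, with 1.02 in responders and -1.05 in non-responders, on 103 reads after and 33 before therapy in responders, and 141 after and 170 before in non-responders. It passed the filter only with the non-responder library before therapy, so its ratio of -1.05 cannot be read apart from the filter.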

How the results depend on the processing

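No core or linker median, and no named gene at least 2-fold apart, changed sign under any scaling, filter, prior count or choice of members that was run. Scaling by library size alone moved the median of all genes by -0.10 (log2) for after over before therapy in responders. It put the linker median of that comparison at -1.63, took HIST1H4B below 2-fold there (0 core genes at least 2-fold higher, as also with a prior count of 2), and left 1 linker gene at least 2-fold lower in the responder before therapy. Over genes averaging at least 5 CPM, 15 core and 3 linker genes were compared, so counts were smaller. Core genes at least 2-fold lower were then 10 for responder over non-responder after therapy, 6 before therapy, 11 for time in responders (0 higher) and 7 for time in non-responders, and 1 linker gene was lower for response before therapy and 1 for time in non-responders. With no filter, 64 to 66 core genes entered, with 42 lower and 2 higher for response after therapy, 27 and 4 before therapy, 45 and 3 for time in responders, 35 and 6 for time in non-responders, and 1 linker gene, HIST1H1A, higher for response after therapy. At 1.5-fold, 23 core genes were lower and 1 higher in the responder before therapy. Shares of all genes at the 5 CPM filter, with no filter and at 1.5-fold are not given here. The counts under those settings therefore cannot be set against all genes. Without members that overlap another gene, an alternative chosen after seeing the data that drops HIST2H2BE, 0 core genes were at least 2-fold higher for time in non-responders, and the core log2 ratio of sums for response after therapy was -0.80 in place of -1.25.

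DESeq2 called 959 genes for response, 7 of them histone genes, and 1533 for time, 12 of them histone genes, where edgeR called 0. For time, edgeR with no filter on low counts and limma-voom each called 2 genes, none of them a histone gene. Leaving out 1 library of the additive fit leaves no residual degree of freedom, so it gives values with no test. Each fitted value is then the ratio of 1 pair of libraries. The ranges that follow thus repeat the pairwise medians given above, up to the prior count, and are no separate check. The core median for response then lay between -1.19 and -0.90 and for time between -1.49 and -1.14. The linker median for response lay between -1.55 and -1.005, -1.10 with all libraries, and for time between -1.53 and -0.63, -0.91 with all libraries, the ends of the last coming without a non-responder and without a responder library. No paired analysis was possible because no label ties a library from before therapy to one from after it. Without the 2 compared members that reach 1 CPM in 1 library alone, another alternative chosen after seeing the data, core genes at least 2-fold lower were 21, 12, 23 and 17 of 32 in the order of comparisons above. That alternative keeps HIST1H4B, HIST1H4F, HIST1H4H and HIST1H2BI, which passed the filter only with the non-responder library before therapy. Depth limits the scarce members, 38 of which averaged under 1 CPM.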

Other observations

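Some members below the filter were far from even. HIST1H2BM had 4 reads in the responder and 8 in the non-responder library after therapy, and 19 in the responder and 205 in the non-responder library before therapy, where the log2 ratio of responder over non-responder was -3.75 (interval -4.55 to -3.10). The linker gene HIST1H1A had 42 reads in the responder and 0 in the non-responder library after therapy, at least 12.3-fold higher when the 0 is set at 3 counts (0.0268 CPM), and 62 reads in each library before therapy. HIST1H3E had 0 reads in the responder and 81 in the non-responder library before therapy, at least 34.5-fold lower when the 0 is set at 3 counts (0.0360 CPM), and 45 in the responder and 27 in the non-responder library after therapy.

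Other marker lists gave these sums. NK cell markers came to 1633 CPM for the responder and 1092 CPM for the non-responder after therapy, and to 2321 CPM for the responder and 1818 CPM for the non-responder before therapy. B and plasma cell markers came to 114 CPM for the responder and 100.3 CPM for the non-responder after therapy. Before therapy they came to 89.5 CPM for the responder and 70.0 CPM for the non-responder. Most single B and plasma markers went against the sum after therapy. Of 10 compared, 6 were then at least 2-fold lower and 1 higher for the responder (median log2 ratio -1.18), against 11.6% and 7.38% of all genes. Before it 1 was lower and 4 higher (median 0.76), against 11.2% and 15%.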
